A study of Comephorus dybowskii and Comephorus baikalensis and Batrachocottus nikolskii with 4 samples.

Results

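Actin, the protein that polymerizes into the thin filaments of muscle and the microfilaments of every cell, was followed through 6 Trinity gene identifiers in the skeletal muscle of 4 Baikal sculpins. The identifiers were taken by name, and each carries an actin among the protein titles that the authors' annotation gives it. TRINITY_DN103_c0_g2 and TRINITY_DN254_c1_g1 are titled actin, cytoplasmic 2, TRINITY_DN60_c0_g2 and TRINITY_DN134_c0_g2 are titled alpha cardiac actin (the former also alpha skeletal actin), and TRINITY_DN15_c0_g1 and TRINITY_DN15_c0_g2 are titled alpha 1 skeletal actin. The common prefix is left out below. They are 6 of the 11 identifiers with an actin title, of the 792 identifiers in the normalized tables and of the 15221 in the unnormalized ones.

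The pelagic species were *Comephorus dybowski* and *Comephorus baicalensis*, and the benthic species were *Batrachocottus nikolskii* and *Batrachocottus multiradiatus*, all wild fish of Lake Baikal with no treatment. Each species was sequenced as 1 library made from pooled muscle RNA, for which the labels give 15 individuals per pool, while the methods text states larger pools. With 1 library per species, no spread within a species was measured. The 2 species of a genus stood as its samples in each test between genera, so that genus, habitat and ancestry cannot be told apart.

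Vertebrate striated muscle builds its thin filaments from alpha actins, the skeletal and cardiac forms of which are products of separate genes with nearly identical proteins. Cytoplasmic actins form the cytoskeleton of all cells and are a minor part of the actin of a mature muscle fibre. A cardiac title does not mark heart tissue in fish, since zebrafish express a cardiac-type alpha actin gene (*actc1b*) in skeletal muscle.

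Values are given in CPM, the deposited read counts scaled to an adjusted library size. The libraries held between 54508410 and 59156409 estimated reads, and the adjustment enlarged the library of *B. nikolskii* by a factor of 1.25 and left the other 3 between 0.960 and 0.993. The lowest read estimate of a member was 66, in *C. baicalensis* for DN254_c1_g1, and all 6 members were listed in the unnormalized tables of both genera. Contig lengths were not used here, so shares of actin reads are not shares of actin molecules. Titles of skeletal muscle fibre proteins (28 identifiers, including fast myosin heavy chain, fast troponins, parvalbumin and muscle creatine kinase) summed to between 107080 and 137885 CPM in the 4 libraries. Single identifiers behind these sums were not level: 15 were higher in both pelagic libraries, 9 were higher in both benthic ones and 4 overlapped. Of all 792 identifiers, 84.5% did not overlap. The similar sums are no measure of equal muscle content.

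In the pelagic libraries most reads of the members fell on DN60_c0_g2, which carries an alpha cardiac and an alpha skeletal actin title, and in the benthic libraries on DN15_c0_g1, whose only actin title is alpha 1 skeletal. DN60_c0_g2, counted here with the alpha cardiac identifiers, was at 32914 CPM in *C. dybowski*, 52062 CPM in *C. baicalensis*, 37.2 CPM in *B. nikolskii* and 81.2 CPM in *B. multiradiatus*. Both pelagic libraries stood far above both benthic ones, the lower of them 406-fold above the higher benthic value. It ranked 2 among the 792 normalized identifiers of both pelagic libraries, and 330 and 208 in *B. nikolskii* and *B. multiradiatus*. The genus difference on log2(CPM + 1), *Comephorus* minus *Batrachocottus*, was 9.53 ± 0.85 (SE, n = 2 species per genus, adjusted p = 0.0126 in limma), and edgeR gave 9.47 on the read estimates (adjusted p = 0.0223). Beside its 2 actin titles the identifier carries titles of phosphopantothenate--cysteine ligase, an enzyme of coenzyme A synthesis, and of something about silencing protein 10, a nucleolar protein, so both its isoform and the part of its reads that are actin are uncertain.

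DN134_c0_g2, whose only title is alpha cardiac actin, was high in 1 library only. It was at 45.8 CPM in *C. dybowski*, 1929 CPM in *C. baicalensis*, 10.9 CPM in *B. nikolskii* and 16.0 CPM in *B. multiradiatus*. The genera did not overlap, but *C. dybowski* lay 2.85-fold above the higher benthic library and 42.1-fold below its own congener. The difference of 4.40 ± 2.04 was not called by limma (adjusted p = 0.136), nor was the 6.24 of edgeR (adjusted p = 0.106). DESeq2 called it (adjusted p = 0.00379), in a test that called 38.0% of the 4755 identifiers listed for both genera (18.4% toward *Comephorus*, 19.6% toward *Batrachocottus*), and so did edgeR without *C. dybowski* (adjusted p = 0.00237) and with unlisted values set to 0 (adjusted p = 0.0125, in a fit that called 76.7% of 15221 identifiers).

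DN15_c0_g1, titled alpha 1 skeletal actin, ran the other way, with 17.4 CPM in *C. dybowski*, 38.8 CPM in *C. baicalensis*, 11849 CPM in *B. nikolskii* and 31063 CPM in *B. multiradiatus*. The lower benthic value was 306-fold above the higher pelagic one, and the identifier ranked 8 and 7 in the normalized tables of *B. nikolskii* and *B. multiradiatus*. The genus difference was -9.47 ± 0.95 (adjusted p = 0.0128 in limma) and -9.60 in edgeR (adjusted p = 0.0246). This identifier shares its name with titles of polyadenylate-binding protein 1A, which binds mRNA tails, proteasome activator subunit 2 and transitional endoplasmic reticulum ATPase, an unfolding enzyme.

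DN15_c0_g2 has no other title than alpha 1 skeletal actin. It was at 5.81 CPM in *C. dybowski*, 20.0 CPM in *C. baicalensis*, 743 CPM in *B. nikolskii* and 3063 CPM in *B. multiradiatus*. Both benthic libraries were again above both pelagic ones, by at least 37.2-fold between the nearest libraries, with a difference of -6.98 ± 1.17 (adjusted p = 0.0195 in limma) and of -7.24 in edgeR (adjusted p = 0.0412). The reads of DN15_c0_g1 and DN15_c0_g2 stood at a ratio of 15.9 in *B. nikolskii* and 10.1 in *B. multiradiatus*, against 3.00 in *C. dybowski* and 1.94 in *C. baicalensis*, so the few pelagic reads were divided between them differently from the benthic ones. Reads from nearly identical actin sequences can be divided between contigs by the estimation, and the split within a pair is uncertain.

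The cytoplasmic pair held 1 identifier for each genus. DN103_c0_g2 was at 2845 CPM in *C. dybowski*, 2237 CPM in *C. baicalensis*, 2.09 CPM in *B. nikolskii* and 1.26 CPM in *B. multiradiatus*. Both pelagic libraries were similar to each other and over 1070-fold above the nearest benthic value, the widest gap of the 6 members. The benthic values rest on read estimates of 142 in *B. nikolskii* and 72 in *B. multiradiatus*, where the lowest listed were 58 and 61. The size of this gap is therefore uncertain. The genus difference of 9.90 ± 0.74 was called by limma (adjusted p = 0.0126), as was the 10.61 of edgeR (adjusted p = 0.0173). Its further titles are lysosome-associated membrane glycoprotein 2 and the ubiquitin-conjugating enzyme E2 D2.

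DN254_c1_g1, with the cytoplasmic 2 title alone, was at 4.63 CPM in *C. dybowski*, 1.25 CPM in *C. baicalensis*, 141 CPM in *B. nikolskii* and 43.1 CPM in *B. multiradiatus*. The benthic libraries were the higher ones here, by at least 9.30-fold, with a difference of -4.47 ± 1.04 in limma (adjusted p = 0.0301) and -4.90 in edgeR (adjusted p = 0.0459). An identical title was therefore carried by an identifier higher in *Comephorus* and by another higher in *Batrachocottus*.

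**Figure D1:**
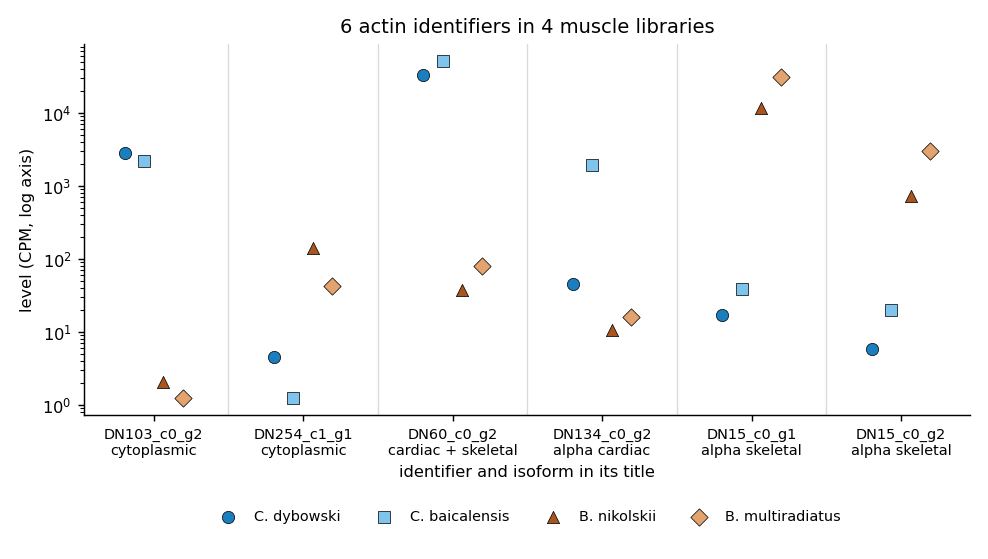
Level of each of the 6 actin identifiers (x axis, with the isoform of its title) in CPM on a log axis, with 1 point per library and no error bars because each species has 1 library. Circles and squares are the pelagic *Comephorus* libraries and triangles and diamonds the benthic *Batrachocottus* ones, and in no identifier do the genera overlap. DN134_c0_g2 is the identifier whose pelagic libraries lie widest apart, at 45.8 and 1929 CPM.

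Over the 6 members, limma called 2 as higher in *Comephorus* (DN103_c0_g2 and DN60_c0_g2) and 3 higher in *Batrachocottus* (DN254_c1_g1, DN15_c0_g1 and DN15_c0_g2), while 54.0% of all 792 identifiers were called, 30.1% and 24.0% by direction. The same 5 were called by edgeR on read estimates, where 9.21% of the 4755 shared identifiers were called, 5.01% and 4.21% by direction. The genera did not overlap for any of the 6, which held for 84.5% of the 792. The members are among the identifiers that the authors had called in these libraries, so these counts are no independent evidence of a difference. The median absolute log2 difference was 8.23 over the members and 4.07 over all identifiers.

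Each test had 2 libraries per genus, and an exact permutation of them cannot give a two-sided p below 0.333. After the removal of *C. dybowski*, *C. baicalensis* or *B. nikolskii*, no identifier of the 792 was called by limma (0 calls each, with 440, 453 and 442 below an unadjusted p of 0.05), and the adjusted p of the called members lay between 0.0516 and 0.0980. Without *B. multiradiatus*, limma called DN103_c0_g2, DN60_c0_g2 and DN15_c0_g1. In edgeR, leaving out either *Batrachocottus* library ended every call (with 1274 and 1441 identifiers of 4755 below an unadjusted p of 0.05), and leaving out *C. baicalensis* ended those of DN254_c1_g1 and DN15_c0_g2 (adjusted p = 0.138 and 0.0727). The direction of each member stayed the same in all of these fits.

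A further 5 identifiers carry an actin title. DN224_c0_g1, titled both alpha 1 skeletal and alpha cardiac actin like DN60_c0_g2 and also E3 ubiquitin ligase ZNF598, was at 393 CPM in *C. dybowski*, 101 CPM in *C. baicalensis*, 10897 CPM in *B. nikolskii* and 20789 CPM in *B. multiradiatus*. It was higher in both benthic libraries, with a genus difference of -6.23 ± 1.05 (adjusted p = 0.0196 in limma and 0.0402 in edgeR), and held 41.7% of all actin-titled reads in *B. nikolskii* and 36.6% in *B. multiradiatus*.

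DN68_c0_g2, titled alpha skeletal actin and a subunit of the BLOC-1-related complex, was at 893 CPM in *C. dybowski*, 98.4 CPM in *C. baicalensis*, 2408 CPM in *B. nikolskii* and 1740 CPM in *B. multiradiatus*. The genera came closer here than in any member, with 1.95-fold between *B. multiradiatus* and *C. dybowski*, and the difference of -2.78 ± 1.34 was not called (adjusted p = 0.146 in limma and 0.266 in edgeR). DN253_c1_g2, titled cytoplasmic 1 and alpha skeletal actin, was at 391 CPM in *C. dybowski* and 109 CPM in *C. baicalensis*, against 9.25 CPM in *B. nikolskii* and 16.4 CPM in *B. multiradiatus*. Its difference of 3.96 ± 1.00 was called, close to the threshold in edgeR (adjusted p = 0.0361 in limma and 0.0497 in edgeR).

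Low levels were found for the remaining pair. DN3705_c0_g1, with an alpha cardiac title beside those of BTF3, a lectin and an angiopoietin-related protein, was at 19.1 CPM in *C. dybowski*, 48.8 CPM in *C. baicalensis*, 0.350 CPM in *B. nikolskii* and 1.12 CPM in *B. multiradiatus*, a difference of 4.22 ± 0.88 (adjusted p = 0.0240 in limma). DN5419_c0_g4, titled cytoplasmic 2, was at 1.40, 2.41, 14.8 and 59.1 CPM in the same order, and its difference of -3.43 ± 1.01 was not called (adjusted p = 0.0505 in limma and 0.0607 in edgeR).

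**Figure D2:**
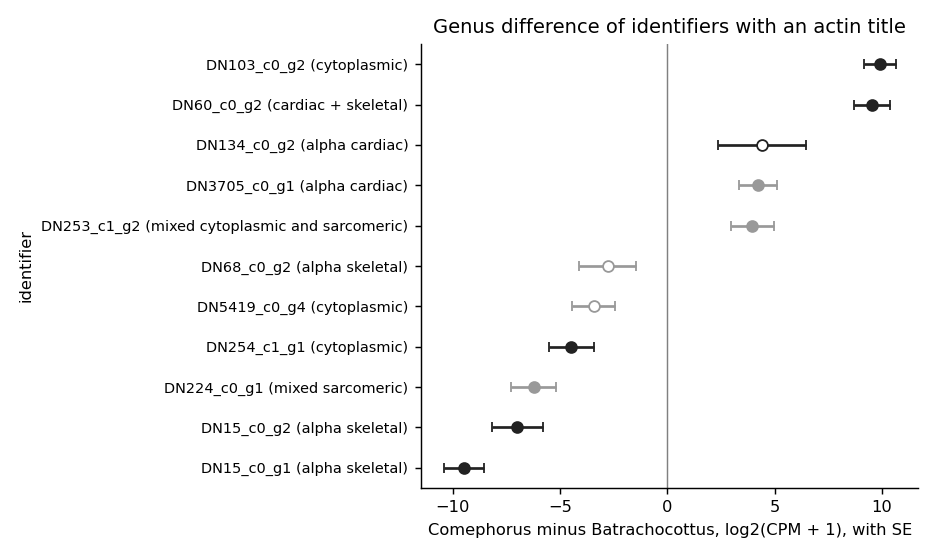
Genus difference (*Comephorus* minus *Batrachocottus*) of the 11 identifiers with an actin title on log2(CPM + 1), with limma's standard error as the bar and 2 libraries per genus. DN60_c0_g2 carries a cardiac and a skeletal title. Black points are the 6 members and grey points the 5 other identifiers, and filled points have an adjusted p under 0.05. The identifiers with an alpha skeletal isoform alone lie left of 0 and those with alpha cardiac alone right of it, and cytoplasmic ones lie on both sides, from -4.47 to 9.90 among the members.

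Summing the members by isoform shows how far the opposite differences balanced, with DN60_c0_g2 counted as cardiac in spite of its second actin title. The alpha cardiac pair summed to 32960 CPM in *C. dybowski*, 53991 CPM in *C. baicalensis*, 48.1 CPM in *B. nikolskii* and 97.2 CPM in *B. multiradiatus*, and the alpha skeletal pair to 23.2, 58.7, 12592 and 34125 CPM in the same order. The genus means therefore differed 598-fold for the cardiac sum and 570-fold, in the other direction, for the skeletal sum. Both folds depend on the class given to DN60_c0_g2, which was not counted as skeletal in any sum by isoform. Its 32914 CPM in *C. dybowski* and 52062 CPM in *C. baicalensis* both exceed the skeletal sum of *B. nikolskii*. Counted as skeletal, it would remove the 570-fold difference. Every species was assembled on its own before the sets were merged, so the same actin gene may stand under different identifiers in the genera. Whether the opposite differences come from such identifiers or from a different use of isoforms was not tested, and the folds are those of identifiers. Nearly all of the cardiac sum was DN60_c0_g2, and with that identifier set apart as DN224_c0_g1 is, the cardiac sum was DN134_c0_g2 alone (45.8, 1929, 10.9 and 16.0 CPM), 73.4-fold higher in *Comephorus*. Added together, the 4 sarcomeric identifiers reached 32983 CPM in *C. dybowski*, 54050 CPM in *C. baicalensis*, 12640 CPM in *B. nikolskii* and 34223 CPM in *B. multiradiatus*. The genera overlapped in this sum, since *B. multiradiatus* lay above *C. dybowski*, and the means differed 1.86-fold.

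When all 11 actin titles were included, the balance came closer. The 7 identifiers with sarcomeric titles alone among their actin titles summed to 34288 CPM in *C. dybowski*, 54298 CPM in *C. baicalensis*, 25945 CPM in *B. nikolskii* and 56753 CPM in *B. multiradiatus*, and the genus means differed 1.07-fold. All 11 identifiers summed to 37530, 56648, 26112 and 56872 CPM in the same order, so that *C. baicalensis* and *B. multiradiatus* were nearly level and *B. nikolskii* was the lowest. In reads, these identifiers made up 3.73% and 5.44% of the pelagic libraries and 3.26% and 5.48% of the benthic ones, in this order (Wilson 95% intervals within 0.01 percentage points, counting error only). The alpha skeletal sum leaves out DN60_c0_g2, DN224_c0_g1 and DN253_c1_g2, whose actin titles name more than 1 isoform. It was 47.4-fold higher in *Batrachocottus* on this set, against 570-fold for the members, because DN68_c0_g2 brought 893 CPM to *C. dybowski*. DN60_c0_g2 and DN224_c0_g1, with both sarcomeric titles, were together 2.69-fold higher in *Comephorus*.

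**Figure D3:**
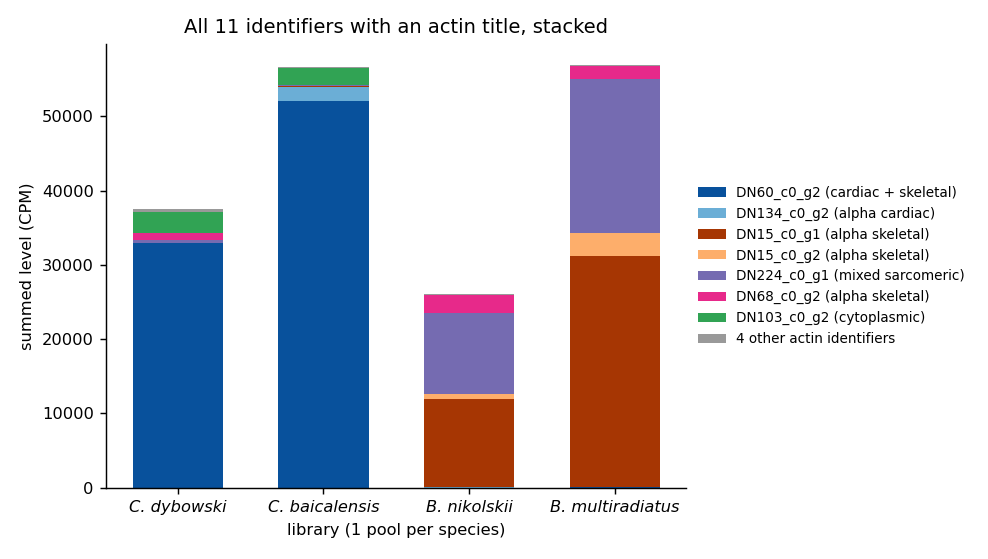
Summed CPM of the 11 identifiers with an actin title in each of the 4 libraries, stacked by identifier, with no error bars because each species has 1 library. Dark blue (DN60_c0_g2) and purple (DN224_c0_g1) are the identifiers with both sarcomeric titles, light blue is alpha cardiac, brown, orange and pink parts are alpha skeletal, green is the main cytoplasmic identifier and grey stands for the 4 low ones. The pelagic columns are mostly DN60_c0_g2 and the benthic columns DN15_c0_g1 and DN224_c0_g1, while the heights (37530, 56648, 26112 and 56872 CPM) overlap between genera.

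As shares of the members' reads, the identifiers counted as alpha cardiac held 92.0% (Wilson 95% interval 91.9 to 92.0) in *C. dybowski* and 95.9% (95.9 to 95.9) in *C. baicalensis*, against 0.376% (0.364 to 0.389) in *B. nikolskii* and 0.284% (0.276 to 0.291) in *B. multiradiatus*. DN15_c0_g1 and DN15_c0_g2, counted as alpha skeletal, held 0.0648% and 0.104% of the reads in the pelagic libraries. They held 98.5% and 99.6% in *B. nikolskii* and *B. multiradiatus*. DN60_c0_g2 is not in these skeletal shares, although it carries an alpha skeletal title too. Without DN60_c0_g2 in the class, the cardiac share was 0.128% and 3.43% in the pelagic libraries. A single identifier carried most of each total, DN60_c0_g2 with 91.9% and 92.5% in *C. dybowski* and *C. baicalensis*, and DN15_c0_g1 with 92.7% and 90.6% in *B. nikolskii* and *B. multiradiatus*. Over all 11 actin titles, DN60_c0_g2 held 87.7% and 91.9% of the reads in the pelagic libraries, and DN15_c0_g1 held 45.4% and 54.6% in the benthic ones. There the alpha skeletal share was 57.4% and 63.1%, and the identifiers with both sarcomeric titles held 41.9% and 36.7%.

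The cytoplasmic titles held 7.95% and 3.98% of the members' reads in the pelagic libraries (*C. dybowski* first) and 1.12% and 0.129% in the benthic ones (*B. nikolskii* first). Their summed level was 2850 CPM in *C. dybowski*, 2239 CPM in *C. baicalensis*, 143 CPM in *B. nikolskii* and 44.3 CPM in *B. multiradiatus*, a 27.2-fold difference of the genus means. Unlike the sarcomeric sum, the 2 opposite cytoplasmic identifiers did not balance, and the genera stayed 15.7-fold apart between their nearest libraries. In bulk muscle RNA, fewer cells of a type and less RNA per cell cannot be told apart.

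The mixed titles bear on these sums. Restricted to the 3 members whose titles are all actins (DN254_c1_g1, DN134_c0_g2 and DN15_c0_g2), the cytoplasmic ratio turned around, since DN254_c1_g1 alone was 31.3-fold higher in *Batrachocottus*. The skeletal direction was kept, with DN15_c0_g2 148-fold higher in *Batrachocottus*. So was the cardiac one, with DN134_c0_g2 73.4-fold higher in *Comephorus*, but this fold was 3.40 without *C. baicalensis*, and the contrast was not called (adjusted p = 0.136 in limma). The sarcomeric sum became 1.92-fold higher in *Batrachocottus* with overlapping genera. These 3 identifiers held 0.00558% and 0.187% of the reads in *C. dybowski* and *C. baicalensis*, and 0.112% and 0.301% in *B. nikolskii* and *B. multiradiatus*, a small part of the actin reads. Because each species was assembled separately and the names were then joined, the reads of DN103_c0_g2, DN60_c0_g2 and DN15_c0_g1, high or low, cannot be divided between actin and the other proteins of the same name, and the sums count them in full as actin. The same holds for DN224_c0_g1, DN68_c0_g2 and DN3705_c0_g1, so the closer balance over all 11 actin titles has this limit too. The 5 of the 11 with only actin titles summed 1.64-fold higher in *Batrachocottus*, with overlapping genera.

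Titles were available for 657 of the 792 identifiers, and an actin among the others would be missing from every sum. The largest untitled value, taken in each library on its own, was 48854 CPM in *C. dybowski*, 57032 CPM in *C. baicalensis*, 8785 CPM in *B. nikolskii* and 33724 CPM in *B. multiradiatus*. These values may belong to different identifiers. The largest actin identifier of each library was at 32914, 52062, 11849 and 31063 CPM in the same order. Untitled identifiers of the unnormalized tables held 60.3% and 58.8% of the reads in the pelagic libraries, and 47.8% and 42.3% in the benthic ones. Most of these identifiers lie outside the 792, which the authors had called between some pair of species. An actin at a like level in every species would not be among the 792. The near balance above therefore holds only for titled actins among called identifiers, and is no measure of all muscle actin.

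Apart from DN134_c0_g2, which was high in *C. baicalensis* only, the same members were high in both species of a genus but differed in level. In *Comephorus*, 4 members were higher in *C. baicalensis* and 2 in *C. dybowski*, and 1 of the 6 differed by 4-fold or more (DN134_c0_g2), against 26.5% of all 792 identifiers. In *Batrachocottus*, 4 members were higher in *B. multiradiatus* and 2 in *B. nikolskii*, and 1 of the 6 differed by 4-fold or more (DN15_c0_g2, 4.12-fold), against 30.2% of all identifiers. Both sarcomeric identifiers with the most reads were higher in the second species of each genus, DN60_c0_g2 by 1.58-fold in *C. baicalensis* and DN15_c0_g1 by 2.62-fold in *B. multiradiatus*, whereas the cytoplasmic DN254_c1_g1 was 3.71-fold and 3.27-fold higher in *C. dybowski* and *B. nikolskii*. With CPM of the unnormalized totals, DN15_c0_g2 fell below the 4-fold limit in *Batrachocottus* (1.67 on the log2 scale) and DN254_c1_g1 passed it (-2.06). These are single libraries with no replicate check.

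Among the other actin titles, DN68_c0_g2 was 9.08-fold higher in *C. dybowski* than in *C. baicalensis*, and DN224_c0_g1 and DN253_c1_g2 were 3.88-fold and 3.60-fold higher there. Among identifiers with alpha skeletal as their only actin isoform, the reads of *C. dybowski* were thus mostly those of DN68_c0_g2. Such identifiers made up 2.44% of all its actin reads against 0.277% in *C. baicalensis*. DN60_c0_g2, titled both cardiac and skeletal, is not among them and held 87.7% and 91.9% of the actin reads in these libraries.

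Titles of proteins that bind, cap or bundle actin filaments were searched by their wording, which gave 29 identifiers. The wording also let in DN548_c0_g2, titled actin-related protein 6 alone, a title that does not name a filament binder. DN548_c0_g2 was called as higher in *Batrachocottus* (-5.07 ± 0.90, adjusted p = 0.0199 in limma and 0.0375 in edgeR). In limma, 12 of the 29 identifiers were called as higher in *Comephorus*, 6 as higher in *Batrachocottus*, and 11 were not called, where 54.0% of all 792 identifiers were called (30.1% and 24.0% by direction). The median log2 difference was 3.37 over the list and 1.40 over all identifiers. On read estimates 20 of the 29 could be tested, and edgeR called 8 and 3, against 5.01% and 4.21% of the 4755 shared identifiers. The list was drawn from the 792 identifiers that the authors had called in these libraries, and most of the 4755 were not. These counts are therefore no independent evidence of a difference. In contrast with the actins, no sum was made over these titles, since they are different proteins.

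The largest differences toward *Comephorus* were those of the F-actin-monooxygenase MICAL2b and PDLIM7. MICAL2b, an enzyme whose family oxidizes actin filaments and so disassembles them (DN5278_c0_g1, with a second title of an RNA polymerase I factor), was at 673 CPM in *C. dybowski*, 628 CPM in *C. baicalensis*, 2.59 CPM in *B. nikolskii* and 2.67 CPM in *B. multiradiatus*. The 2 species of each genus were close to each other, and the genus difference was 7.49 ± 0.71 (adjusted p = 0.0126 in limma). PDLIM7, a PDZ and LIM domain protein of actin-anchored structures (DN290_c0_g1), was at 713, 1005, 3.85 and 10.7 CPM in the same order, a difference of 6.81 ± 0.86 (adjusted p = 0.0144).

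Toward *Batrachocottus* the largest differences were those of 2 identifiers titled as WAS/WASL-interacting proteins, which bind regulators of actin nucleation. DN2190_c0_g1 was at 3.81 CPM in *C. dybowski*, 3.77 CPM in *C. baicalensis*, 5715 CPM in *B. nikolskii* and 3125 CPM in *B. multiradiatus*, a difference of -9.78 ± 0.78 (adjusted p = 0.0126 in limma). It carries 5 titles, among them a skeletal myosin light chain and glucose-6-phosphate dehydrogenase, so its reads cannot be assigned to the WAS/WASL-interacting protein. DN0_c2_g1, also titled annexin A6, was at 5.40, 0.265, 77.5 and 605 CPM in the same order, a difference of -6.26 ± 1.52 (adjusted p = 0.0329). Other identifiers with such a title were called the other way, among them DN458_c0_g2, which has no further title and was at 2833, 3377, 109 and 25.5 CPM (5.84 ± 1.02, adjusted p = 0.0199), and DN202_c0_g1 (6.78 ± 1.23, adjusted p = 0.0200).

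The partners given next, and the last pair above, were chosen after their values were seen. Alpha-actinin-3b, which anchors thin filaments at the Z-disc, was higher in *Comephorus* in both of its identifiers. DN6966_c0_g4 was at 788 CPM in *C. dybowski*, 1004 CPM in *C. baicalensis*, 45.0 CPM in *B. nikolskii* and 52.7 CPM in *B. multiradiatus* (4.16 ± 0.73, adjusted p = 0.0199 in limma), and DN6966_c0_g1 was at 133, 185, 1.22 and 6.31 CPM in the same order (5.29 ± 0.95, adjusted p = 0.0200). Tropomodulin-4, which caps the pointed end of thin filaments in muscle, had a pair of identifiers with no further title. DN3070_c1_g2 was at 816 CPM in *C. baicalensis* and at 1.12, 1.34 and 0.867 CPM in the other libraries, a pattern of 1 library that was not called (4.31 ± 3.14, adjusted p = 0.277). DN3070_c1_g1 was at 1.33, 28.6, 1.13 and 0.453 CPM in *C. dybowski*, *C. baicalensis* and the benthic libraries and was not called either (2.24, adjusted p = 0.250). A further identifier, DN1118_c0_g1, with further titles, was called as higher in *Batrachocottus* (-4.59 ± 0.75, adjusted p = 0.0194).

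**Figure D4:**
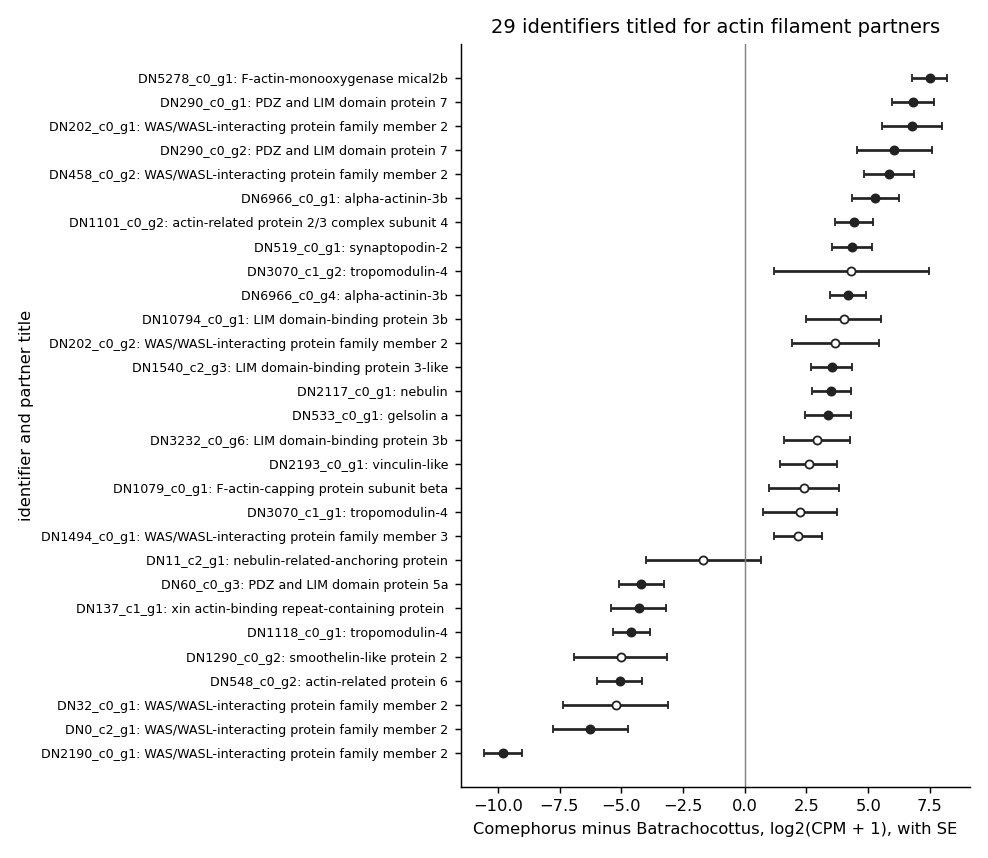
Genus difference (*Comephorus* minus *Batrachocottus*) on log2(CPM + 1) of 29 identifiers picked by the wording of titles for actin filament partners, with limma's standard error as the bar and 2 libraries per genus. Filled points have an adjusted p under 0.05, 12 of them right of 0 and 6 left of it. Many of these identifiers carry further, unrelated titles that the axis does not show.

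The titled identifiers nearest in pattern to each member, by the root mean square (RMS) difference of row-centred log2(CPM + 1) over the 4 libraries, were searched among 646 that are not actins. For DN103_c0_g2 it was troponin T type 3a of fast skeletal muscle (DN462_c0_g4, RMS 0.35), which was at 8969 and 4700 CPM in the pelagic and 4.38 and 5.56 CPM in the benthic libraries. DN60_c0_g2 was nearest to an identifier titled as the sarcoplasmic reticulum calcium pump 1 and a sodium channel beta subunit (DN279_c0_g1, RMS 0.34), and DN15_c0_g1 to a nucleoside diphosphate kinase (DN199_c2_g1, RMS 0.51). DN134_c0_g2 was nearest to peroxiredoxin-5, a mitochondrial peroxidase (DN1396_c1_g3, RMS 0.24), which shared the single high library, at 275 CPM in *C. baicalensis* and 4.92, 0.494 and 0.558 CPM in *C. dybowski*, *B. nikolskii* and *B. multiradiatus*. DN15_c0_g2 was nearest to collectin-12 (DN3653_c0_g1, RMS 0.22) and DN254_c1_g1 to a methenyltetrahydrofolate synthase domain protein (DN2487_c0_g2, RMS 0.33). For comparison, DN103_c0_g2 and DN60_c0_g2 were each other's nearest actin at an RMS of 0.68, with 8 and 6 titled identifiers closer. For the other members, 16 (DN15_c0_g1), 40 (DN15_c0_g2), 47 (DN134_c0_g2) and 100 (DN254_c1_g1) titled identifiers were closer than the nearest actin. These matches over 4 libraries were not tested.

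Titles of other cell types also moved between the libraries. Slow or cardiac muscle titles (5 identifiers) summed to 2366 CPM in *C. dybowski*, 2112 CPM in *C. baicalensis*, 488 CPM in *B. nikolskii* and 194 CPM in *B. multiradiatus*, where the pelagic sums were mostly 1 identifier titled slow troponin C and ribosomal protein L36. That was the 1 identifier of the 5 higher in both pelagic libraries, and 3 were higher in both benthic ones. For comparison with the counts in this paragraph, 353 of all 792 identifiers were higher in both pelagic libraries and 316 in both benthic ones. The identifiers titled slow troponin I were at 17.1 and 2.86 CPM (DN116_c0_g1) and 4.95 and 13.6 CPM (DN2629_c0_g1) in the pelagic libraries, and at 107 and 66.2 CPM and 207 and 58.7 CPM in the benthic ones. Of the identifiers titled cardiac troponin T, DN1665_c0_g3 was at 0.141 and 1.07 CPM in the pelagic and 131 and 58.8 CPM in the benthic libraries, while DN349_c0_g1 overlapped between genera (7.90 and 1.53 CPM against 37.6 and 3.41 CPM). Collagen titles (2) summed to 14.1, 138, 855 and 518 CPM in the order of species above, hemoglobin titles (9) to 3382, 3131, 1096 and 734 CPM, and keratin titles (7) to 183, 589, 29.0 and 894 CPM, with 1 hemoglobin identifier (DN7542_c0_g2) listed at 0 in *B. nikolskii*. Titles of smooth muscle (2) summed to 391, 229, 1246 and 65.9 CPM, those of leukocytes (5) to 113, 58.7, 282 and 57.4 CPM, and perilipin-2 (1), of lipid droplets, was at 2.22, 30.8, 0.488 and 70.5 CPM. Of these, the hemoglobin sum was higher in both pelagic libraries, with 6 of its 9 identifiers. The slow or cardiac muscle sum was too, though with only 1 of its 5 identifiers. The cardiac and cytoplasmic actin sums were likewise higher in both pelagic libraries. The collagen sum was higher in both benthic libraries, as was the skeletal actin sum without DN60_c0_g2. The part of any cell type in the actin differences was not tested.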

How the data were processed

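Skeletal muscle of 4 species was sequenced as 1 non-directional library each. The authors trimmed reads with Trimmomatic 0.36, assembled transcripts of every species on their own with Trinity, merged these sets, removed near-duplicates with CD-HIT (95% identity) and estimated reads with Salmon. The deposited unnormalized tables hold estimated counts, as whole numbers, per gene identifier, for identifiers above about 1 CPM in both libraries of a genus. The deposited CPM values, by the authors with edgeR 4.0.3 (TMM), cover 792 identifiers, each of which passed the authors' call between some pair of species. Protein titles came from the supplementary annotation, read in part. In the tests, blank or unlisted identifiers were not used as 0 except in 1 alternative. In sums and shares of reads an unlisted value counted as 0, as for DN3705_c0_g1 in both *Batrachocottus* libraries.

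Genera were compared on log2(CPM + 1) with limma 3.58.1 over 792 identifiers and on the estimated counts with edgeR 4.0.16 (quasi-likelihood, TMM) over the 4755 shared ones in R 4.3.3, with Benjamini-Hochberg adjustment and a call at an adjusted p under 0.05. Where nothing else is said, adjusted p-values are from limma. Sums, shares (Wilson intervals at 95%) and pairs within a genus (4-fold) got no test. Scripts were tested on simulated data. Alternatives were pseudocounts of 0.1 and 10, at least 1 CPM in 2 libraries, DESeq2 1.42.0, no filter, other identifier sets, CPM of unnormalized totals and leaving out each library. After the data were seen, sums of untitled identifiers and sums without DN3705_c0_g1 and DN5419_c0_g4 were added. Sums with DN60_c0_g2 apart, for its second actin title, were added as well. A planned edgeR fit on reads recovered from the CPM was not run, because the values are not whole multiples of a step.

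By rule, the text names the 6 members, every other actin title and the titled identifier nearest to each member. For each direction it names the 2 partner titles that differed most between genera. Outside this rule it names further partners, some chosen after their values were seen, and single troponin and hemoglobin identifiers. The members, lists and tests were chosen with earlier results of these data known.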

Additional observations from a re-analysis of the deposited data

How the results depend on the processing

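Neither genus contrast turned the direction of a member under any alternative run. With other pseudocounts or a filter on low CPM, the calls of limma kept their side of the threshold for all 6 members (adjusted p between 0.00651 and 0.195). On estimated counts, DESeq2 called 1808 identifiers and edgeR without a filter, with unlisted values as 0, called 11668 of 15221, against 438 of 4755 for edgeR as reported, and both added DN134_c0_g2 to the called members. Leaving out 1 library gave 0 to 316 called identifiers in limma (0 to 2 members higher in *Comephorus* and 0 to 1 higher in *Batrachocottus*) and 0 to 292 in edgeR (0 to 3 and 0 to 3), where the genus with 1 library is assumed to vary like the other. Log2 ratios of the isoform sums, *Comephorus* over *Batrachocottus*, depended on which identifiers were summed. With members that have only actin titles, the cytoplasmic ratio went from 4.76 to -4.97, the sarcomeric one from 0.89 to -0.94 and that of all members from 0.97 to -1.00, while the cardiac ratio was 6.20 and the skeletal one -7.21. With DN60_c0_g2 set apart for its second actin title, the cardiac ratio was likewise 6.20 in place of 9.22. With all actin titles the skeletal ratio was -5.57 and the ratio of all actins 0.18, as they were without DN3705_c0_g1 and DN5419_c0_g4 (-5.57 and 0.18). Leaving out 1 library gave 4.15 to 5.84 for the cytoplasmic, 8.80 to 9.82 for the cardiac, -9.97 to -8.26 for the skeletal, 0.35 to 1.78 for the sarcomeric and 0.43 to 1.85 for the whole sum. No paired analysis was possible because the labels carry no replicate numbers and each species has 1 library. The lowest read estimates of members lay near the lowest listed in their library. They were 66 against 57 for DN254_c1_g1 in *C. baicalensis* and 72 against 61 for DN103_c0_g2 in *B. multiradiatus*. The size of these 2 limma differences depended on the pseudocount. From 0.1 to 10 it went from -4.95 to -2.80 for DN254_c1_g1 and from 10.5 to 7.76 for DN103_c0_g2. The number of libraries limited the tests.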
